A study of Mus musculus with 10 samples.

Results

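The genes described here are 33 genes of cholesterol synthesis, uptake and efflux, out of 54532 genes in the count table of a mouse brain RNA-seq experiment. They were taken by gene name and comprise 19 enzymes of the mevalonate and sterol pathways, 6 genes of SREBP control and sterol transport, and 8 genes of cholesterol efflux, turnover and uptake. All 33 were found, and all 33 passed the filter on low counts that left 17665 genes for testing. The 10 mice were Slc20a2-HO mice, homozygous for the Slc20a2 tm1a(EUCOMM)Wtsi allele, so that the placebo mice carried the deficiency too. From the age of 1.5 months, 6 of them received FTY720 at 0.5 mg/kg in dimethyl sulfoxide by intraperitoneal injection and 4 received dimethyl sulfoxide alone (placebo), for 12 weeks. FTY720 (fingolimod) acts on receptors for sphingosine-1-phosphate and holds lymphocytes in lymph nodes. RNA came from brain tissue, and no wild-type library was analysed here.

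Cells make cholesterol from acetyl-CoA through mevalonate, squalene and lanosterol. The membrane-bound SREBP transcription factors switch on the genes of this pathway when sterols are scarce, with SCAP escorting them to the Golgi and the INSIG proteins holding them back in the endoplasmic reticulum. The brain relies on its own synthesis because lipoproteins of the blood do not readily cross the blood–brain barrier. Astrocytes supply cholesterol to other cells on particles that carry apolipoprotein E, oligodendrocytes use large amounts for myelin, and neurons dispose of excess as 24S-hydroxycholesterol.

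The mouse names carry a digit after the group letter, as in F1-622 and P3-904, and the sources used here do not say what it marks. It was 1 in 3 FTY720-treated mice and 1 placebo mouse, and 3 in the remaining 3 mice of each group. The libraries stood apart by this digit. The summed level of 18 cerebellar marker genes was 438 to 535 CPM in the digit 1 mice and 2179 to 2359 CPM in the digit 3 mice (CPM, counts scaled to the size of the library with TMM factors), and 17 of the 18 were higher with digit 3 at an adjusted p under 0.05. Of 14 markers of cerebral cortex and hippocampus, 9 were lower and 1 higher with digit 3, and their sum was 1040 to 1157 CPM against 1289 to 1534 CPM. None of the 107 cell type and region markers was at 0 in every mouse of a group or digit, and 1 cerebellar marker was at 0 in at least 1 mouse. Because the digits were spread unevenly over the treatments, the treatment was also compared within the digit 3 mice. Each library held 14772745 to 18303981 counts. Slc20a2 itself, counted over the whole gene, was at 6.31 to 14.8 CPM in FTY720-treated mice and at 9.43 to 17.0 CPM in placebo mice, a range in which the groups overlapped. A difference in such bulk RNA cannot be told apart as fewer cells of a type or less RNA per cell.

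To show the regulatory sequence of the synthesis genes, promoter windows of 300 bases around the transcription start (RefSeq, GRCm38.p6) were searched on both strands in the 27 members that were matched in the table. The members Fdps, Fdft1, Sqle, Stard4, Abcg1 and Abcg4 were not searched. The sterol regulatory element TCACNCCAC, the letters bound by SREBP, was found in 1 of the 27 members (3.70%), Hmgcs1, and in 1.44% of the 27025 genes with a window. The CCAAT box is a site of the factor NF-Y, which works beside SREBP at many sterol genes. It was present in 20 of the 27 members (74.1%), against 41.1% of all genes and 42.1% of protein-coding genes. A gene was counted if any of its windows held the letters. By window, the box was in 21 of 38 member windows, against 37.4% of all 32851 windows. The palindrome CACGTG was present in 6 members (22.2%) against 8.09% of all genes, and AGGTCA repeated after 4 bases with 1 mismatch allowed, the kind of site bound by liver X receptors, was in none of the members and in 0.278% of all genes. These shares are descriptions of letters in a window and not of binding.

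The 4 windows below were chosen after the values were seen, for Hmgcs1, which holds the sterol element, for Msmo1 and Cyp51, the enzymes that varied most closely with the other enzymes between mice, and for Lss, which varied in the opposite direction. Capitals mark a sterol regulatory element or a CCAAT box, read on either strand, so that a box on the other strand appears as ATTGG. In Hmgcs1 the sterol element lies from -137 to -129 relative to the start, between CCAAT boxes that end at -172 and begin at -45. Msmo1 holds 3 CCAAT boxes, from -160, -96 and -55, and Cyp51 and Lss hold 1 each, from -29 and -62.
Hmgcs1 (chr13:119690101-119690400, plus strand): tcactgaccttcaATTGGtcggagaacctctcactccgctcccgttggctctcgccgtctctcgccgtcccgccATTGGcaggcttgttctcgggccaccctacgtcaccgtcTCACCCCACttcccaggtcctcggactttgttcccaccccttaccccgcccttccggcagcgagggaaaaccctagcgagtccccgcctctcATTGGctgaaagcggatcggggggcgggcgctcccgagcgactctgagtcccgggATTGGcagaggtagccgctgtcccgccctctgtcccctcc
Msmo1 (chr8:64733529-64733828, minus strand): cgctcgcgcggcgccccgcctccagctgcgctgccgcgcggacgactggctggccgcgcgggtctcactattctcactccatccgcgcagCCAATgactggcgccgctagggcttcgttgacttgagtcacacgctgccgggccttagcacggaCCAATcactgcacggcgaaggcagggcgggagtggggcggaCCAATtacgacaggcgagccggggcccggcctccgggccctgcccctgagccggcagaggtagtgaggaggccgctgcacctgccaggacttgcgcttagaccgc
Cyp51 (chr5:4104648-4104947, minus strand): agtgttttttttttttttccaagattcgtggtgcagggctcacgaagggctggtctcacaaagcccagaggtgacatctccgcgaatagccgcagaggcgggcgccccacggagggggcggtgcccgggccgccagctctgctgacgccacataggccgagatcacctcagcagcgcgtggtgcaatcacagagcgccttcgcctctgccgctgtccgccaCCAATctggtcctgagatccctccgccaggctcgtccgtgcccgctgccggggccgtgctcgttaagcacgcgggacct
Lss (chr10:76531355-76531654, plus strand): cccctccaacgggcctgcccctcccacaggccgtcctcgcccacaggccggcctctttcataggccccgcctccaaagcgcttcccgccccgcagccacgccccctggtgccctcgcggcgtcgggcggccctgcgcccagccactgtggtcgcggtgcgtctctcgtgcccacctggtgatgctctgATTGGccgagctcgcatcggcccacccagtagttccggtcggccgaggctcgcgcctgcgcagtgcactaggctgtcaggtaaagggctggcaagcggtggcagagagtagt

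Levels per gene length, in FPKM, ranged over more than 3 orders of magnitude between members. Apoe, the apolipoprotein of brain lipoprotein particles, was by far the most abundant at 698 ± 337 FPKM (SD, n = 10). Cyp46a1, the neuronal cholesterol 24-hydroxylase, followed at 52.4 ± 13.3 FPKM and Hmgcs1, the synthase that makes HMG-CoA, at 50.8 ± 8.35 FPKM, a pair that did not differ beyond their spread. Srebf2, the main activator of cholesterol synthesis genes, was at 29.7 ± 5.45 FPKM, Insig1 at 28.0 ± 3.06 FPKM and the endocytic receptor Lrp1 at 26.7 ± 5.72 FPKM, again within the spread of one another. The other 17 enzymes lay between 3.52 FPKM (Tm7sf2, a sterol 14-reductase) and 23.3 FPKM (Fdft1, squalene synthase). The lowest were Nr1h3, the liver X receptor alpha, at 1.89 ± 0.459 FPKM and Fdps, farnesyl diphosphate synthase, at 0.303 ± 0.0703 FPKM. Fdps had 14 to 33 counts per mouse, and 64.1% of the 50-base words of its coding transcripts also occur in transcripts of 8 other genes, most of them in Gm43738, which overlaps it on the same strand and held 1 count in all 10 mice. Its level is therefore uncertain.

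**Figure D1:**
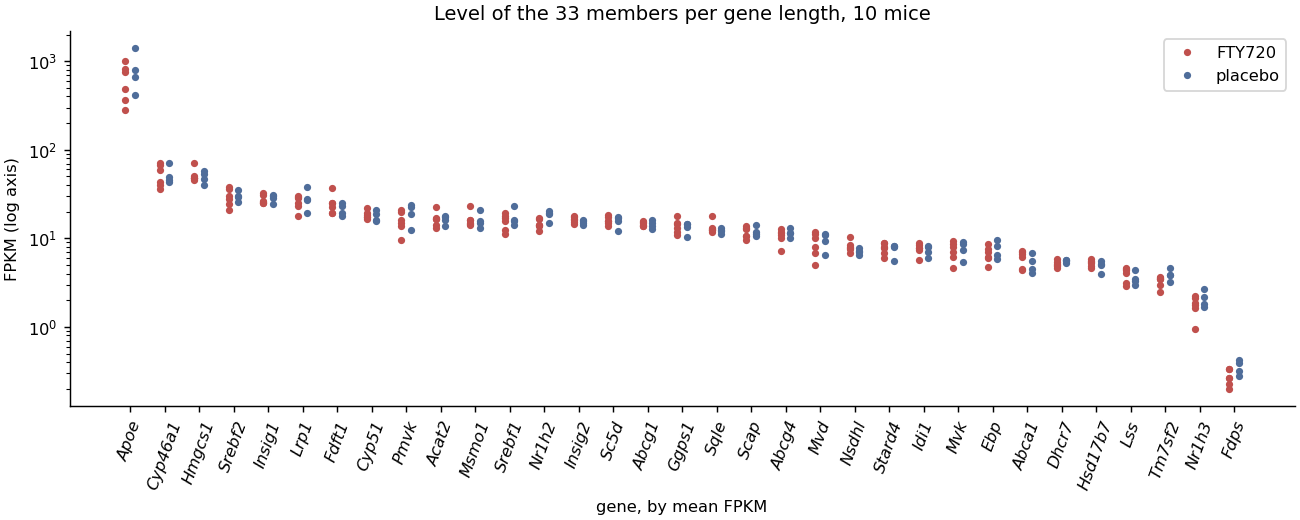
FPKM of each of the 33 members (log axis), ordered by mean, with 1 point per mouse for 6 FTY720-treated and 4 placebo mice. Apoe stands above all others at a mean of 698 FPKM, Fdps lies below all others at 0.303 FPKM, and the treatment groups overlap for every member.

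FTY720 was first compared with placebo over all 10 mice. A gene was called at an unadjusted p under 0.05, the p cutoff of the study. The test used here was the quasi-likelihood test of edgeR. Of the members 1 was called, and it was lower with FTY720, where 2.61% of the protein-coding genes tested were called and 1.47% were called lower. The log2 fold changes of the 33 members had a median of 0.01, with 17 above and 16 below 0, beside a median of 0.00 over all genes tested. No gene passed Benjamini-Hochberg adjustment over the 17665 genes in edgeR's test (smallest adjusted p = 0.99992; 461 genes at an unadjusted p under 0.05). DESeq2 gave 474 protein-coding genes at an unadjusted p under 0.05 and 0 after adjustment, against 386 in edgeR's test. No member had separate CPM ranges in the treatment groups, against 0.839% of protein-coding genes.

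**Figure D2:**
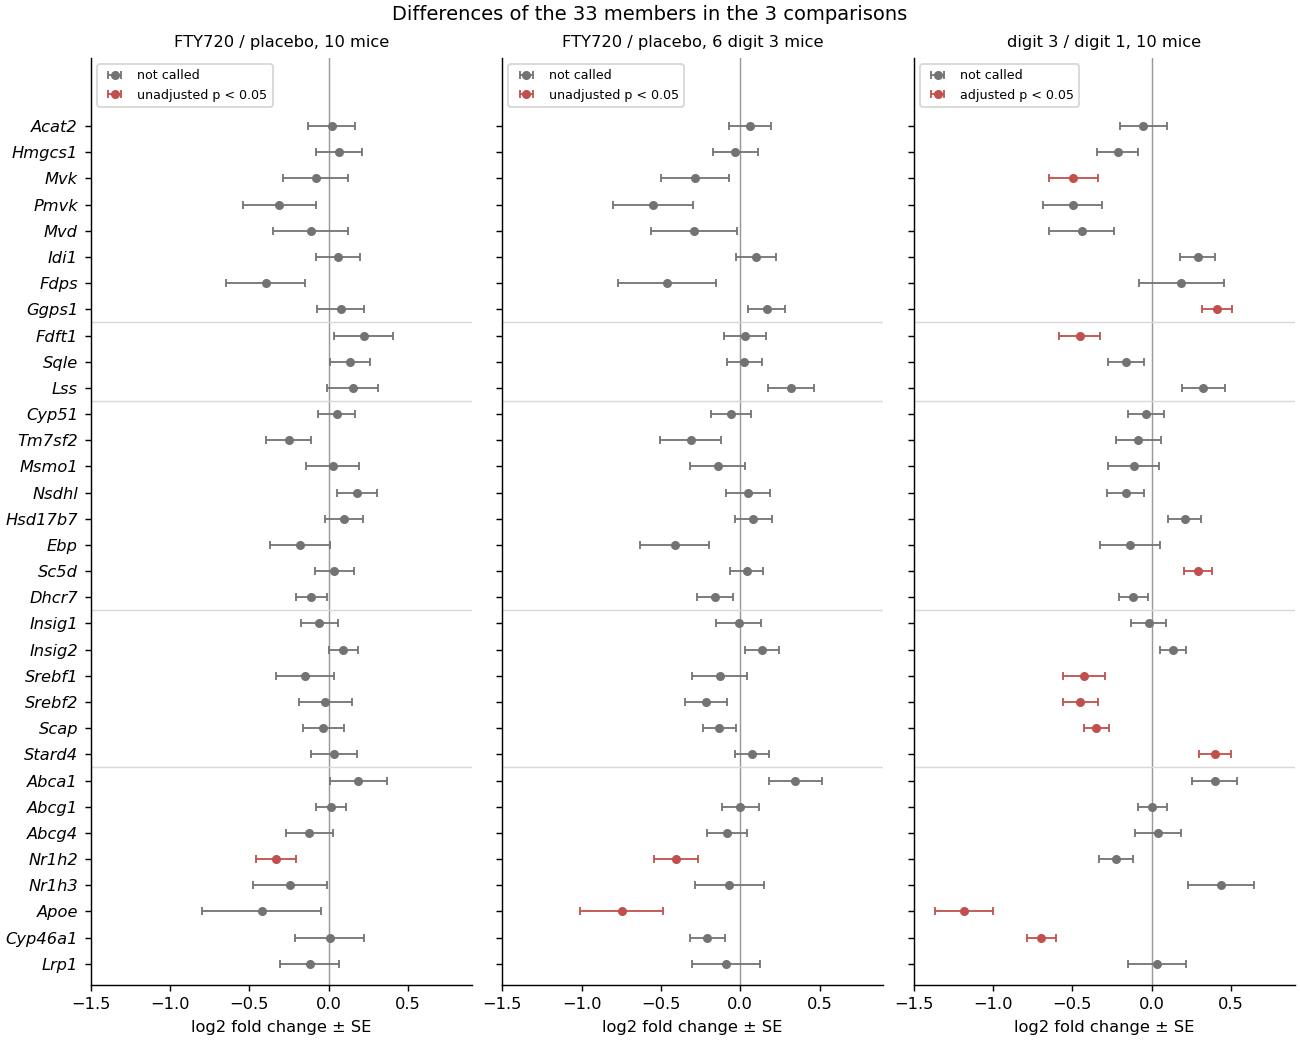
Log2 fold change ± SE of the 33 members for FTY720 over placebo in 10 mice, for FTY720 over placebo in the 6 digit 3 mice, and for digit 3 over digit 1 in 10 mice, in blocks by role from the mevalonate pathway at the top to efflux, turnover and uptake at the bottom. Called members are red: 1 and 2 at an unadjusted p under 0.05 in the treatment panels, and 10 at an adjusted p under 0.05 in the digit panel.

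The synthesis enzymes did not pass the test for FTY720. In the mevalonate pathway, 4 of 8 fold changes were above 0 and 4 below. They ran from -0.40 for Fdps (SE 0.25) and -0.31 for Pmvk, phosphomevalonate kinase (SE 0.23), to 0.08 for Ggps1. All 3 genes of the squalene and lanosterol step had positive values, 0.22 for Fdft1, 0.13 for Sqle (squalene epoxidase) and 0.15 for Lss (lanosterol synthase), with standard errors of 0.18, 0.13 and 0.16. Of the 8 genes from lanosterol to cholesterol, 5 had values above 0 and 3 below, between -0.25 for Tm7sf2 (SE 0.14) and 0.18 for Nsdhl (SE 0.13), a sterol dehydrogenase on the X chromosome. The genes of SREBP control had values between -0.15 (Srebf1, SE 0.18) and 0.09 (Insig2, SE 0.09).

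Nr1h2 (ENSMUSG00000060601, chromosome 7 from 44549616 to 44553951, minus strand), the liver X receptor beta that senses oxysterols and activates efflux genes, was lower with FTY720. The FTY720-treated mice had a lowest level of 40.5, a median of 47.4 and a highest of 57.6 CPM. The placebo mice had 50.4 (P3-904), 63.3 (P3-612), 65.8 (P3-907) and 68.6 CPM (P1-623). Of the placebo mice, 3 were above every FTY720-treated mouse and P3-904 lay inside the range of the FTY720 group. The means were 49.2 ± 6.40 CPM (SD, n = 6) and 62.0 ± 8.04 CPM (SD, n = 4), a log2 fold change of -0.33 (SE 0.13, unadjusted p = 0.020, Benjamini-Hochberg adjusted p = 0.99992 in edgeR's test), and an exact permutation test, two-sided over all 210 assignments of the mice, gave p = 0.038. The call was lost without P1-623 (log2 fold change -0.28) and without P3-907 (-0.30), and after each library was corrected for its dependence on base composition and transcript length (-0.15). The second receptor of this kind, Nr1h3, had a log2 fold change of -0.25 (SE 0.23) from 41 to 126 counts per mouse.

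The genes that liver X receptors are known to activate did not pass the test. The transporter Abca1, which loads cholesterol onto apolipoproteins, had a log2 fold change of 0.19 (SE 0.18), and Abcg1 and Abcg4, which export sterols to lipoprotein particles, had 0.02 (SE 0.09) and -0.12 (SE 0.15). Apoe (ENSMUSG00000002985, chromosome 7 from 19696109 to 19699188, minus strand) spread over a wide range, from 602 to 2150 CPM with a median of 1351 CPM in the FTY720-treated mice. The placebo mice had 898 (P3-904), 1446 (P3-907), 1738 (P3-612) and 3045 CPM (P1-623). The groups overlapped, with the lowest mouse in the FTY720 group and the highest in the placebo group, and the log2 fold change of -0.42 (SE 0.38, p = 0.28 in edgeR's test) was within the spread between mice (exact permutation p = 0.39). Without P1-623 it was -0.03 and without P3-904 it was -0.64. Lrp1, a receptor that takes up apolipoprotein E particles, had -0.12 (SE 0.18), and Cyp46a1 had 0.01 (SE 0.22).

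Within the digit 3 mice, 3 of each treatment, 2 members were called, Nr1h2 and Apoe, both lower with FTY720, where 7.95% of the protein-coding genes were called and 5.0% were called lower. The members' log2 fold changes had a median of -0.07, with 13 above and 20 below 0, beside -0.00 over all genes tested. The smallest adjusted p over all genes was 0.65439 in edgeR's test, with 1283 genes at an unadjusted p under 0.05. After adjustment DESeq2 gave 5 of all genes, and edgeR's test with no filter on low counts gave 134. With 3 mice against 3, an exact permutation test cannot go below p = 0.1.

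Nr1h2 was at 40.5, 47.1 and 47.7 CPM with FTY720 (F3-609, F3-612, F3-908) and at 50.4, 63.3 and 65.8 CPM with placebo (P3-904, P3-612, P3-907). The groups did not overlap, and the log2 fold change was -0.40 (SE 0.14, unadjusted p = 0.017 in edgeR's test, exact permutation p = 0.1). The call was lost without F3-609 (-0.34), without P3-907 (-0.33) and after correction for base composition and length (-0.10). Apoe was at 602, 776 and 1055 CPM with FTY720 and at 898, 1738 and 1446 CPM with placebo, in the same order of mice. Here P3-904 lay below F3-908, so the groups overlapped, and the log2 fold change was -0.75 (SE 0.26, unadjusted p = 0.019 in edgeR's test, exact permutation p = 0.2). That call was lost without F3-609 (-0.57) and without F3-612 (-0.72), and the value was -0.42 after the correction, with the call kept. Leaving out F3-609 left 0 members called, leaving out P3-907 left 1, leaving out F3-908 gave 4, all lower, and leaving out P3-904 gave 8, of which 6 were lower and 2 higher. The share of protein-coding genes called moved alike, to 2.17%, 2.28%, 10.5% and 23.5%, so that the 8 members (24.2%) were near the share of all genes.

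A further pair of members had separate ranges in the digit 3 mice without passing the test. With Nr1h2 this made 3 of 33 members, where 13.7% of the protein-coding genes had separate ranges. Dhcr7 (ENSMUSG00000058454, chromosome 7 from 143823145 to 143848410, plus strand), the reductase that makes cholesterol from 7-dehydrocholesterol, was at 26.8, 29.5 and 30.1 CPM with FTY720 and at 33.7, 30.7 and 32.6 CPM with placebo. The gap between the groups was narrow, and the log2 fold change was -0.16 (SE 0.11, p = 0.19 in edgeR's test, exact permutation p = 0.1). Cyp46a1 (ENSMUSG00000021259, chromosome 12 from 108334381 to 108362234, plus strand) was at 118, 142 and 134 CPM with FTY720 and at 144, 163 and 151 CPM with placebo. Its log2 fold change was -0.21 (SE 0.11, p = 0.098 in edgeR's test, exact permutation p = 0.1), and it was 0.03 after correction for base composition and length. Of 13 neuron markers, 3 were lower and 0 higher with FTY720 in these mice at an unadjusted p under 0.05, and their summed level was 8278, 8518 and 8527 CPM with FTY720 and 8688, 8948 and 8760 CPM with placebo. The groups were separate for this sum too, and its part in the Cyp46a1 values was not tested.

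**Figure D3:**
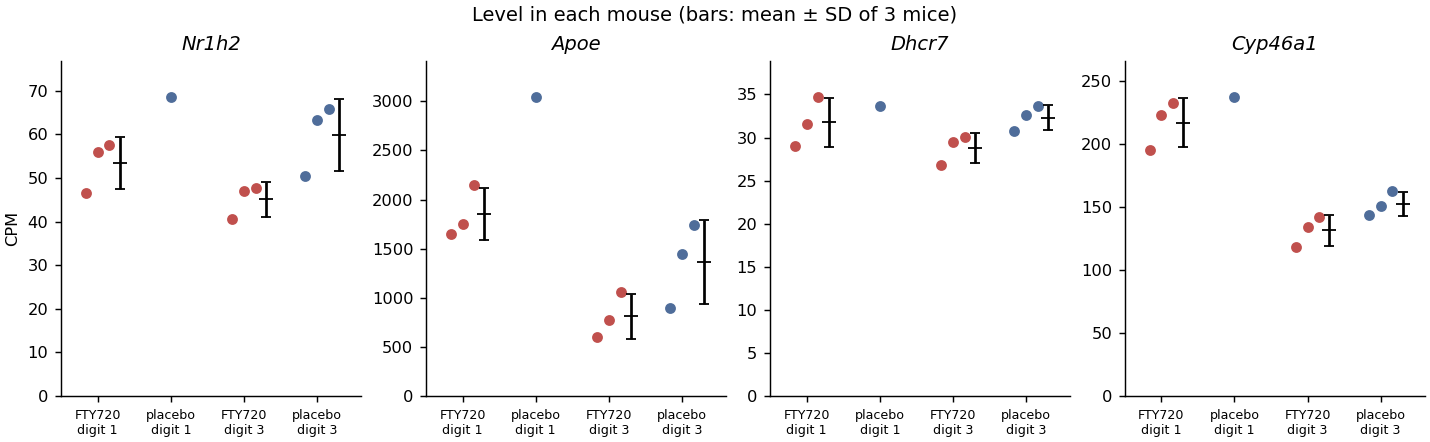
CPM of Nr1h2, Apoe, Dhcr7 and Cyp46a1 in each mouse (vertical axes from 0), by treatment and name digit, with the mean ± SD of each set of 3 mice; the digit 1 placebo group is a single mouse. Within digit 3 the FTY720-treated mice lie below the placebo mice for Nr1h2, Dhcr7 and Cyp46a1, and for Apoe the ranges overlap.

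With the digit as a covariate over all 10 mice, 3 members were called for FTY720, all lower, where 8.45% of the protein-coding genes were called lower. They were Nr1h2 at -0.39 (SE 0.11), Apoe at -0.74 (SE 0.18) and Pmvk at -0.46 (SE 0.19), and no gene had an adjusted p under 0.05 (smallest 0.354 in edgeR's test). The difference of the treatment effect between the digits was tested by an interaction term, which rests on the single digit 1 placebo mouse. None of the 33 members had an unadjusted p under 0.05 for it (smallest 0.139, for Ebp), 345 of the 17665 genes did, and none passed adjustment in edgeR's test.

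Cell type markers moved with the treatment beside these members. Of 17 oligodendrocyte and myelin genes 5 were lower with FTY720 at an unadjusted p under 0.05 over all mice, with a summed level of 6331 to 7254 CPM against 7082 to 8326 CPM, and of 9 oligodendrocyte precursor genes 2 were lower, with 272 to 399 CPM against 367 to 459 CPM. Of 10 endothelial genes 3 were higher, with 192 to 307 CPM against 174 to 201 CPM. Within the digit 3 mice, where Apoe was called, the sums of these 3 lists were separate between the treatments. There 6 oligodendrocyte and myelin genes were lower (6395 to 6691 CPM against 7391 to 8326 CPM), 4 precursor genes were lower (272 to 324 CPM against 367 to 426 CPM) and 5 endothelial genes were higher (240 to 307 CPM against 194 to 201 CPM). Apoe is made mainly by astrocytes and microglia: of 13 astrocyte markers 0 were called, with 4842 to 5652 CPM against 4842 to 5501 CPM. Of 13 microglial markers 0 were called over all mice and 3 were lower within the digit 3 mice, where their sum was 356, 391 and 436 CPM with FTY720 and 409, 553 and 486 CPM with placebo, in the order of mice given for Apoe. The part of these cell types in the member values was not tested.

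Most pairs of synthesis enzymes, though not all, correlated positively between mice apart from treatment and digit. Over the deviations from the fitted treatment and digit means, the median correlation of the 171 pairs of the 19 enzymes was 0.353 across the 10 mice, and 120 pairs (70.2%) were positive. Over all pairs of the 17665 genes tested the median was 0.0014, with 50.1% positive. With the treatment and digit means left in, the 171 enzyme pairs had a median of 0.223, with 109 positive. These points share libraries and their depth, so the values are a description. Msmo1, the sterol C4-methyl oxidase, correlated at 0.917 with the mean of the other enzymes, Cyp51, the lanosterol 14-demethylase, at 0.907, Ebp, a sterol isomerase, at 0.878, Hmgcs1 at 0.868 and Fdft1 at 0.863. A smaller set did not follow, with Lss at -0.794, Ggps1, which makes geranylgeranyl diphosphate for protein prenylation, at -0.518, and Hsd17b7 and Sc5d near 0 at -0.0676 and 0.0847.

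The mean log2 deviation of the 19 enzymes was highest in F1-622 (0.226, with 15 of 19 enzymes above their own mean) and P3-612 (0.150, 15 of 19), and lowest in F3-609 (-0.193, 5 of 19) and P3-904 (-0.136, 6 of 19). The high and the low pair each held 1 mouse of either treatment. In F1-622, Hmgcs1 stood at 328 CPM and Msmo1 at 143 CPM, against 211 to 234 CPM and 87.7 to 101 CPM in the other FTY720-treated mice. Without F1-622 the median pair correlation was 0.302 with 102 pairs positive, and over the 10 mice left out in turn it was 0.302 to 0.409 with 102 to 132 pairs positive. After correction for base composition and length, an alternative added after the data were seen like the left-out mice, it was 0.380 with 139 pairs positive. In F1-622, P3-612, F3-609 and P3-904 the microglial markers had mean log2 deviations of 0.542, 0.191, -0.491 and -0.308. The neuron markers had 0.1, 0.0345, -0.156 and -0.0244 in the same mice. In F1-918, P1-623 and F3-612 the microglial values were 0.288, 0.28 and -0.341, beside enzyme values of 0.0162, -0.0207 and -0.0512. F1-622 was also the library with the lowest total. The part of these cell types and of library size in the enzyme values was not tested.

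**Figure D4:**
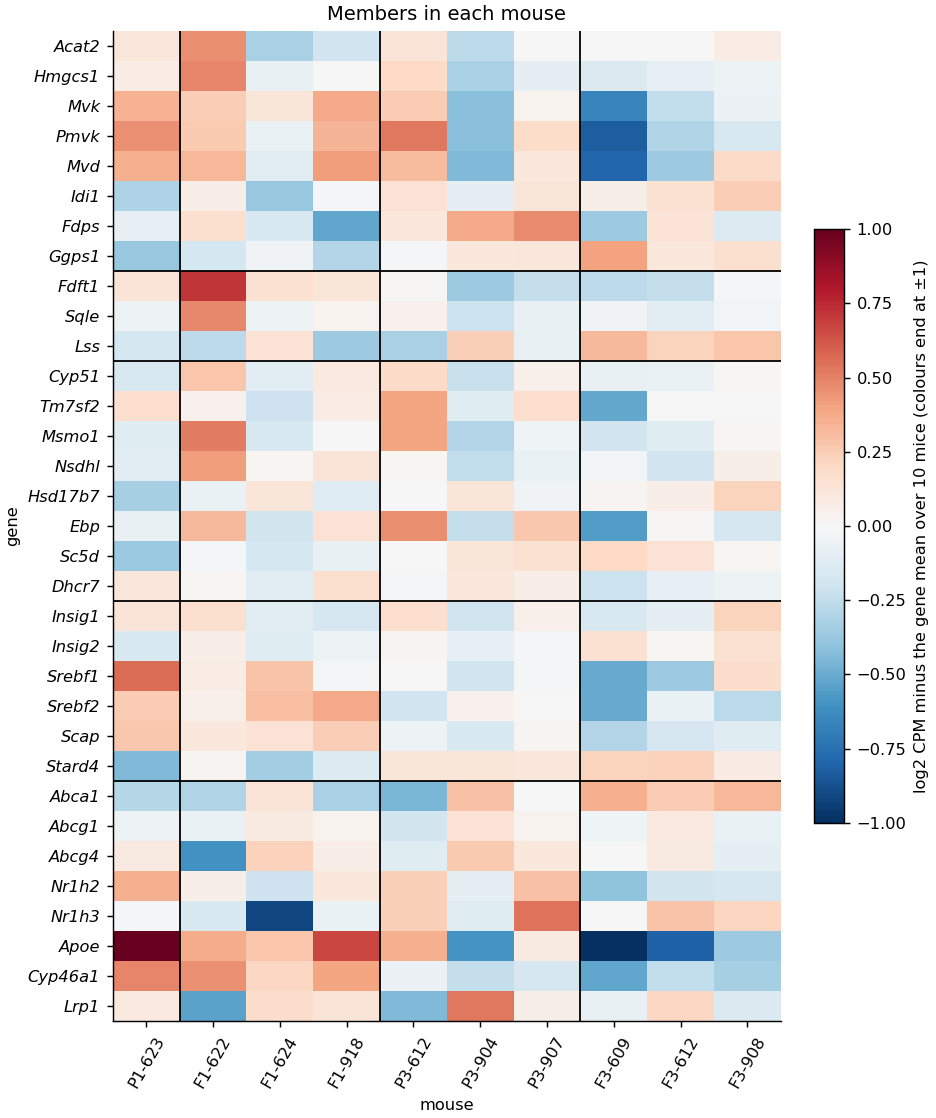
Log2 CPM of each member minus its mean over the 10 mice, with blocks by role (rows) and by digit and treatment (columns: the digit 1 placebo mouse, digit 1 FTY720, digit 3 placebo, digit 3 FTY720). F1-622 and P3-612 are above the mean for 15 of the 19 enzymes, F3-609 is above it for 5, and Apoe goes past the ends of the colour scale in P1-623 and F3-609.

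Between the digits, with treatment as a covariate, 10 of the 33 members were called at an adjusted p under 0.05 in edgeR's test, of which 3 were higher and 7 lower with digit 3. Over all 17665 genes 28.4% were called, 13.9% higher and 14.4% lower, so the share among the members was near that of all genes. Log2 fold changes had a median of -0.08 for the members and -0.01 for all genes. The CPM ranges of the digits did not overlap for 7 members, where 15.0% of the protein-coding genes had separate ranges.

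The largest difference among the members was in Apoe, at 1647, 1753 and 2150 CPM in the FTY720-treated digit 1 mice, 3045 CPM in P1-623, and between 602 and 1738 CPM in the digit 3 mice with a median of 977 CPM. P3-612 of digit 3 lay above F1-624 of digit 1, so the ranges overlapped, and the log2 fold change was -1.18 (SE 0.18, adjusted p = 8.56e-04 in edgeR's test, exact permutation p = 0.014). Cyp46a1 was at 196, 223, 233 and 238 CPM with digit 1 and at 118 to 163 CPM with digit 3, with a median of 143 CPM. Its digits were fully separate, with a log2 fold change of -0.69 (SE 0.09, adjusted p = 2.30e-04 in edgeR's test). The exact permutation test gave p = 0.0048, the smallest that 6 against 4 mice allow, and it ignored treatment. Neither gene lost its call in any of the 23 alternatives.

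Of the genes of SREBP control, Srebf2, Scap and Srebf1 were called lower with digit 3, and Insig1 and Insig2 were not called. Srebf2 (ENSMUSG00000022463, chromosome 15 from 82147181 to 82205379) was at 220, 254, 262 and 277 CPM with digit 1 and at 150 to 219 CPM with digit 3 (median 195 CPM). Its ranges met closely without overlap, and the log2 fold change was -0.45 (SE 0.11, adjusted p = 0.010 in edgeR's test, exact permutation p = 0.0095). Scap (ENSMUSG00000032485, chromosome 9 from 110333288 to 110384950), the SREBP escort, was at 95.4, 97.9, 105 and 107 CPM with digit 1 and at 72.2 to 90.3 CPM with digit 3 (median 80.6 CPM). The digits were separate, with a log2 fold change of -0.35 (SE 0.08, adjusted p = 0.0073 in edgeR's test, exact permutation p = 0.0048). Srebf1, whose product mainly drives fatty acid genes, was lower as well at -0.43 (SE 0.13, adjusted p = 0.030 in edgeR's test). Insig1 and Insig2 did not pass the test, at -0.02 (SE 0.11) and 0.14 (SE 0.08).

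Stard4 (ENSMUSG00000024378, chromosome 18), a carrier of cholesterol between membranes, went in the other direction. It was at 31.3, 33.5, 38.6 and 43.3 CPM with digit 1 and at 45 to 49.8 CPM with digit 3 (median 46.1 CPM). The digits were separate and the log2 fold change was 0.40 (SE 0.10, adjusted p = 0.012 in edgeR's test, exact permutation p = 0.0048).

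Among the enzymes, 4 were called between the digits. Ggps1 (ENSMUSG00000021302, chromosome 13 from 14050659 to 14063488, minus strand) was at 49.1, 52.0, 56.6 and 62.5 CPM with digit 1 and at 63.5 to 84.7 CPM with digit 3 (median 68.9 CPM). Sc5d (ENSMUSG00000032018, chromosome 9 from 42251595 to 42264256, minus strand), the lathosterol desaturase, was at 59.7, 68.7, 73.5 and 76.7 CPM with digit 1 and at 77.4 to 88.8 CPM with digit 3 (median 84.8 CPM). Both were higher with digit 3, and neither overlapped between the digits, at log2 fold changes of 0.41 (SE 0.09, adjusted p = 0.0074 in edgeR's test) and 0.29 (SE 0.09, adjusted p = 0.026 in edgeR's test). Of the 23 alternatives Ggps1 passed in 20 and Sc5d in 14.

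Fdft1 (ENSMUSG00000021273, chromosome 14 from 63145150 to 63179578, minus strand), which commits farnesyl diphosphate to sterols, was at 106, 107, 108 and 160 CPM with digit 1 and at 75.8 to 98.1 CPM with digit 3 (median 82.6 CPM). The digits were again separate, and the log2 fold change was -0.45 (SE 0.13, adjusted p = 0.022 in edgeR's test, exact permutation p = 0.0048). Mvk, mevalonate kinase, was lower at -0.49 (SE 0.15, adjusted p = 0.030 in edgeR's test), with overlapping ranges. The neighbouring steps Pmvk and Mvd had values of -0.50 (SE 0.19, adjusted p = 0.061 in edgeR's test) and -0.44 (SE 0.20, adjusted p = 0.12 in edgeR's test) that did not pass. Of the 23 alternatives Fdft1 passed in 20, Mvk in 17, Srebf1 in 15, Stard4 in 20 and Scap in 21. In the FTY720-treated mice alone 7 members (21.2%) were called, where 17.9% of all genes were called. Apoe, Cyp46a1, Fdft1, Mvk and Srebf2 kept their calls, and Abca1 (higher) and Pmvk (lower) were newly called. Ggps1, Sc5d, Scap, Stard4 and Srebf1 lost theirs, with values of 0.40, 0.21, -0.36, 0.33 and -0.32. Without P1-623, 4 members remained called, Apoe, Cyp46a1, Scap and Srebf2, all lower with digit 3, and without F3-609 or without F3-612 there were 6. The share of all genes called fell too, to 14.4%, 16.6% and 19.9%, near the members' 12.1%, 18.2% and 18.2%.

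**Figure D5:**
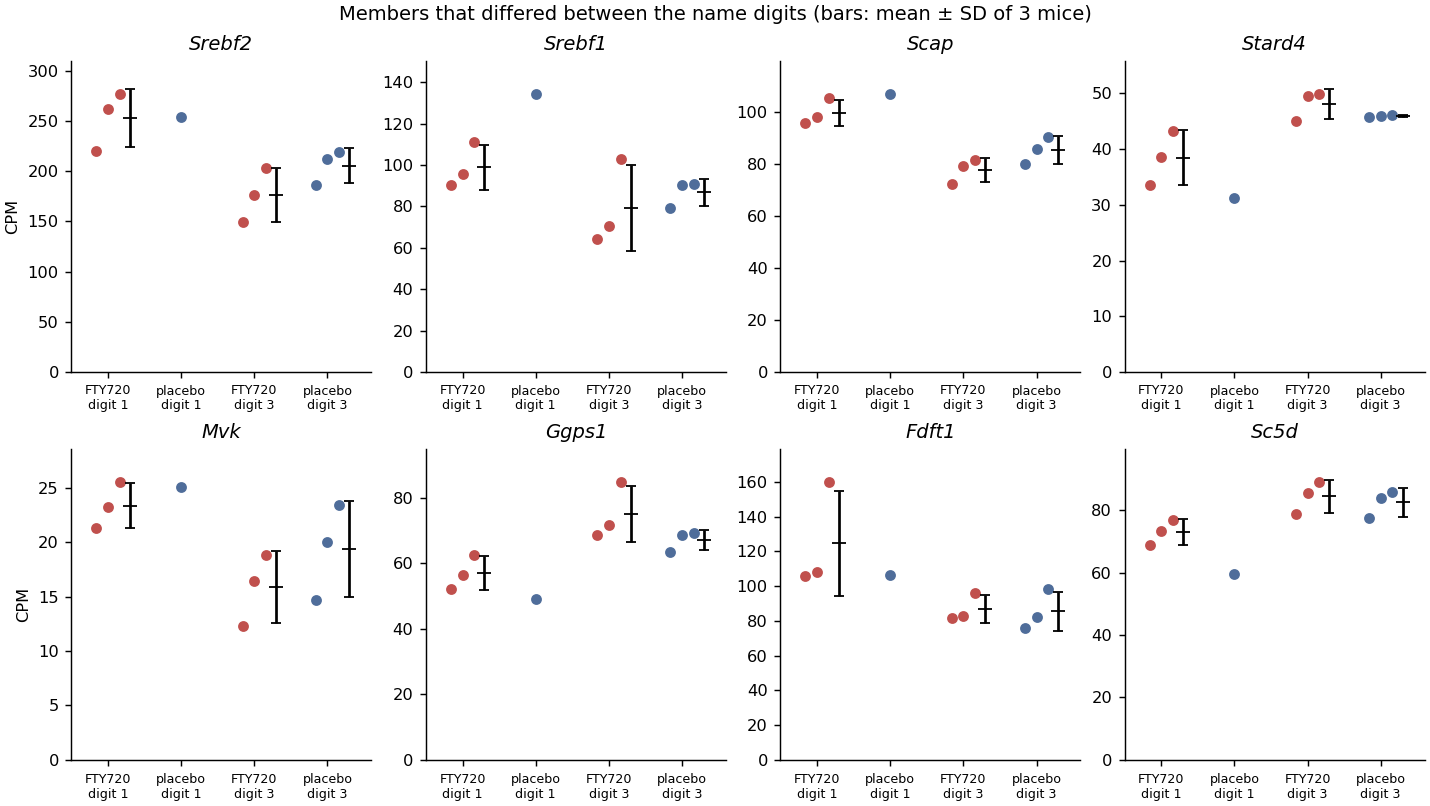
CPM in each mouse (vertical axes from 0) of 8 members called between the digits, by treatment and digit, with the mean ± SD of each set of 3 mice; the digit 1 placebo group is a single mouse. Srebf2, Scap and Fdft1 are lower and Stard4, Ggps1 and Sc5d higher in every digit 3 mouse than in every digit 1 mouse, and Srebf1 and Mvk overlap.

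The digit differences of the members went with the base composition of their transcripts. Over the 33 members, GC content and the digit log2 fold change correlated at -0.628, and over 17647 genes at -0.324 (correlations across genes, which are not independent replicates). The 3 members that were higher had a GC content of 40.1% to 43.9%, and the 7 that were lower had 51.8% to 59.5%. Over all genes the medians were 44.8% for those called higher and 55.2% for those called lower. The same correlation over the members was -0.601 for FTY720 against placebo and -0.616 within the digit 3 mice, comparisons that share mice with each other. Over all genes these 2 values were -0.314 and -0.434. After each library was corrected for base composition and length, 6 members (18.2%) were called between the digits, where 24% of all genes were called. Apoe, Cyp46a1, Fdft1 and Srebf2 were lower as before (at -0.79, -0.35, -0.35 and -0.25), Hmgcs1 became lower and Nr1h3 higher, Scap, Ggps1, Stard4, Sc5d, Mvk and Srebf1 lost their calls, and 0 were called for FTY720 over all mice. Within the digit 3 mice Apoe stayed lower and Lss was called higher after this correction. These 2 members (6.06%) were near the 5.83% of protein-coding genes called. The microglial list was also lower with digit 3 in 9 of 13 genes, with a sum of 356 to 553 CPM against 522 to 720 CPM. Of the 13 neuron markers 4 were lower and 1 higher with digit 3, and their sums were separate, at 8278 to 8948 CPM against 9283 to 9753 CPM. The part of microglia, neurons and brain region in the digit differences of the members was not tested.

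In 7 lists of further pathway genes, 2 of 85 genes (2.35%) were called for FTY720 over all mice, near the 2.61% of all protein-coding genes. Of 10 tested genes of sterol synthesis and receptors outside the group, 1 was called lower over all mice, Fdxr, a ferredoxin reductase that passes electrons to mitochondrial sterol hydroxylases (log2 fold change -0.38, SE 0.16, adjusted p = 0.99992 in edgeR's test), and 0 higher. Of 10 genes of SREBP processing, 1 was called higher, Erlin1, an endoplasmic reticulum protein of sterol-regulated degradation (0.25, SE 0.11, adjusted p = 0.99992 in edgeR's test), and all 10 fold changes were above 0, with a median of 0.07. None was called over all mice among 17 genes of sterol storage and transport, 5 of oxysterol and bile acid enzymes, 17 of lipoproteins and their receptors, 14 fatty acid targets of SREBP-1 and 12 of the isoprenoid branch. Within the digit 3 mice, 3 of the 85 genes (3.53%) were called, against 7.95% of protein-coding genes. Cyp11a1, the side-chain cleavage enzyme of steroid synthesis, was lower at -0.65 (SE 0.28), in a list of 5 oxysterol and bile acid enzymes that were all below 0 with a median of -0.24. Mid1ip1, a regulator of fatty acid synthesis, was lower at -0.39 (SE 0.16), and Pdss1, which makes the side chain of coenzyme Q, was higher at 0.51 (SE 0.15).

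Between the digits, 23 of the 85 genes (27.1%) were called, 15 higher and 8 lower with digit 3, near the 28.4% of all genes. Cyb5r3 and Por, which pass electrons to sterol enzymes, were lower with digit 3 at -0.64 (SE 0.12) and -0.58 (SE 0.11), as 2 of 3 lower calls among the 10 genes of sterol synthesis and receptors. Mbtps2, the site-2 protease that releases SREBP, and Sec24a, a coat protein of the vesicles that carry it, were higher at 0.48 (SE 0.09) and 0.60 (SE 0.16), the 2 calls among 10 genes of SREBP processing. Osbpl9 and Osbpl8, oxysterol-binding protein relatives, were higher at 0.46 (SE 0.08) and 0.49 (SE 0.15), among 3 higher and 0 lower calls in 17 genes. Cyp27a1, the sterol 27-hydroxylase, was higher at 0.79 (SE 0.14), the only call among 5 oxysterol and bile acid enzymes, while Cyp7b1 had -0.40 (SE 0.17). Among 17 lipoprotein genes 6 were higher, Abca7 among them at 0.80 (SE 0.14), and 1 was lower, Clu (clusterin) at -0.64 (SE 0.13). Fads2 and Fads1, fatty acid desaturases, were lower at -0.42 (SE 0.09) and -0.35 (SE 0.08), among 3 lower and 1 higher calls in 14 genes, and Icmt and Pdss1 of the isoprenoid branch were higher at 0.85 (SE 0.12) and 0.68 (SE 0.15), the 2 higher calls beside 1 lower in 12 genes.

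Some member counts are uncertain because other genes share their sequence or place. Transcripts of Acat2 share 40.7% of their 50-base words with Acat3, Idi1 shares 20% with other genes, Tm7sf2 19.5% with Vps51, Fdft1 10.9% with a processed pseudogene and Ggps1 5.70%. Genes on the opposite strand overlap Fdft1 (Ctsb, 105165 counts in all against 16371), Ggps1 (Arid4b), Cyp51 (Akap9) and Srebf1 (Rai1), and the strand setting of the counting is not given in the sources used here, so reads of the overlapping stretches cannot be told apart.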

How the data were processed

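Brain RNA of 10 Slc20a2-HO mice was sequenced with paired ends. The authors deposited raw counts per gene and FPKM values per mouse. Their notes name CASAVA 1.8, fastp, HISAT2 2.0.5, featureCounts 1.5.0-p3, DESeq2 1.20.0 and GRCm38. The methods describe alignment to this build. The annotation release and strand setting are not given in the sources used here. Library totals were 14772745 to 18303981 counts. A length-sensitive or GC-sensitive library difference is not removed by TMM scaling.

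Counts were filtered by filterByExpr, given TMM factors and fitted in edgeR 4.0.16 under R 4.3.3, with the quasi-likelihood F test run over the whole table. The methods of the study give no covariate. A standard error was taken as the size of the log2 fold change over the root of its F value. CPM, FPKM and log2 CPM (prior count 2) are given as levels. Genes were called at an unadjusted p under 0.05 for FTY720 and an adjusted p under 0.05 for the name digit. For single members an exact permutation test of the group means of log2 CPM, two-sided, was added. For the digits it ignored treatment, which the edgeR fit held as a covariate. The alternatives were DESeq2 1.42.0, limma 3.58.1 (voom, and log2 FPKM plus 0.1 or 1), RLE and upper-quartile scaling, no filter, at least 10 counts in every mouse, trends on length or on GC content and length removed, the leading digit of the mouse number or the name digit as a covariate, treatment left out, FTY720-treated mice alone, and each mouse left out. The pipeline was tested on simulated data. No pair of libraries was a duplicate, since the chi-square per degree of freedom over 5000 genes was at least 16.1 in 45 pairs.

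The members and lists were chosen with earlier results of these data known. Values per mouse are given for members called for FTY720, members with separate treatment ranges and the 8 members with the smallest p for the digit. Other pathway genes are named where called for FTY720 or among the 2 smallest p of their list for the digit. The 4 printed promoters, and the members named as called under an alternative, were chosen after their values were seen.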

Additional observations from a re-analysis of the deposited data

Results flagged for a closer look

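In 5 of 66 groups (33 members in 2 treatment groups), 1 mouse lay far from the others of its group by the gap rule of Dixon, which chance gives in about 1 of 20 groups. F1-622 was the outlying mouse for 4 synthesis enzymes in the FTY720 group: Hmgcs1 at 327.8 CPM against 210.5 to 233.5 CPM, Fdft1 at 159.7 CPM against 81.5 to 108 CPM, Sqle at 100.2 CPM against 66.5 to 73.7 CPM, and Msmo1 at 143.1 CPM against 87.7 to 101 CPM. In the placebo group, Stard4 was at 31.25 CPM in P1-623, the only placebo mouse with the name digit 1, against 45.7 to 46.1 CPM.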

How the results depend on the processing

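For FTY720 against placebo, the 1 member called over all mice became 2 with the length trend removed, 0 with GC content and length trends removed and 3 with the name digit as a covariate, and 0 to 3 with a mouse left out (0 without P1-623 or P3-907, 3 without P3-904). Within the digit 3 mice, 2 members called became 6 with no filter on low counts, and 4 with the length trend removed or with the leading digit of the mouse number as a covariate, and 0 to 8 with a mouse left out (0 without F3-609, 1 without P3-907, 4 without F3-908, 8 without P3-904). For the digits, 10 members became 6 with GC content and length trends removed and 4 to 13 with a mouse left out. They became 14 with the length trend removed, 13 with DESeq2, 12 with no filter and 7 with treatment left out. Cyp46a1 within the digit 3 mice reversed to 0.0315 with GC content and length trends removed. The share of protein-coding genes called moved as well. For FTY720 over all mice (2.61%) it was 3.42% with the length trend removed, 2.47% with GC content and length trends removed, 14.1% with the name digit as a covariate, 2.35% without P1-623, 1.44% without P3-907 and 5.79% without P3-904. Within the digit 3 mice (7.95%) it was 10.3% with no filter, 10.9% with the length trend removed, 4.38% with the leading digit as a covariate, 2.17% without F3-609, 2.28% without P3-907, 10.5% without F3-908 and 23.5% without P3-904. For the digits the share of all genes (28.4%) was 24% with GC content and length trends removed. Without P1-623 it was 14.4% and without P3-612 33.5%, where 4 and 13 members were called. With the length trend removed it was 30.8%, with DESeq2 32.4%, with no filter 15.4% and with treatment left out 20.9%. The members' shares there were 42.4%, 39.4%, 36.4% and 21.2%. The cause of these moves was not tested. Over the alternatives, the log2 fold change of Nr1h2 was -0.42 to -0.15 for all mice and passed the threshold in 19 of 22, and that of Apoe within the digit 3 mice was -0.98 to -0.42 and passed in 15 of 17. That of Nr1h2 within the digit 3 mice was -0.51 to -0.10 and passed in 14 of 17. No paired analysis was possible because the treatment groups share 1 mouse number, 612, and 1 pair leaves no residual.

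Fdps had 14 to 33 counts per mouse and Nr1h3 41 to 126, which limits the precision of their values. P1-623 is the only placebo mouse with digit 1, so the digit effect in placebo mice and the interaction rest on it. Region, cell composition and base composition moved with the digit and cannot be told apart here.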
